A study of Homo sapiens with 6 samples.

Results

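The 39 genes described here encode the glutathione, thioredoxin and NRF2 antioxidant systems of THP-1, an established human line of monocytic leukemia cells. They were taken by gene name from a table of 33981 genes, and all 39 were found and passed the filter on low counts that left 19182 genes for testing. THP-1 cells had been infected with a lentiviral vector carrying a scrambled shRNA (3 samples) or an shRNA against NFIC (3 samples), a transcription factor of the nuclear factor I family. GFP-positive cells were sorted 4 days after infection and their mRNA was sequenced in bulk. The comparison asks how RNA levels changed when NFIC was reduced in these leukemia cells. It rests on 1 cell line and, by the study's methods, on a single NFIC shRNA, and those methods describe the control vector as GFP only whereas the sample labels call it scrambled shRNA, the name used here. No label says that the 3 samples of a group came from separate cultures, so the p-values measure the spread between these samples, which may be technical.

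Cells remove hydrogen peroxide and lipid peroxides with enzymes, many of which draw electrons from NADPH through glutathione or through thioredoxin. NRF2, encoded by NFE2L2, is a transcription factor that binds antioxidant response elements in front of many of these genes, and KEAP1 is the adaptor that marks NRF2 for degradation. Monocytes make superoxide with their own NADPH oxidase.

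Total counts ranged from 20369543 to 24809720 per sample. At that depth 3 counts, taken as the smallest detectable amount, equal 0.122 to 0.146 CPM, which are counts scaled to a common library size, a limit that covers counting error only. NFIC itself had 911, 1019 and 904 counts in the control samples and 399, 518 and 493 in the knockdown samples, which left 50.2% of the control level (log2 fold change -0.99, SE 0.072, adjusted p = 3.73e-09 from edgeR's quasi-likelihood test). The first principal component held 77.2% of the variance and separated the groups. On the second component, with 7.37%, scrambled replicate 2 and NFIC shRNA replicate 3 stood apart from the other 4 samples, at -18.0 and -20.5 against 4.63 to 15.8. Calls that depend on those samples are given with and without them.

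The antioxidant genes did not move as 1 group. Among the 39, 10 rose and 19 fell at an adjusted p under 0.05, adjusted by Benjamini-Hochberg over all genes tested with edgeR, and 10 did not pass. That is 74.4% of the members against 59.9% of all genes tested. Higher calls made up 25.6% of the members against 29.6% of all genes, and lower calls 48.7% against 30.3%. Only 4 members changed at least 2-fold, all downward, which is 10.3% against 11.9% of all genes. The median log2 fold change of the members was -0.15, and that of all genes tested was -0.01. In absolute size the members' median was 0.31 and that of all genes 0.37. In 29 members (74.4%) the samples of the groups did not overlap, as in 65.2% of all genes. The largest losses were in ALDH2, TXNIP, GPX3, GSTM2, PRDX2 and TXNRD1, while the largest gains, in MGST3, GSTO1, PGD and PRDX3, stayed under 1.5-fold.

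**Figure D1:**
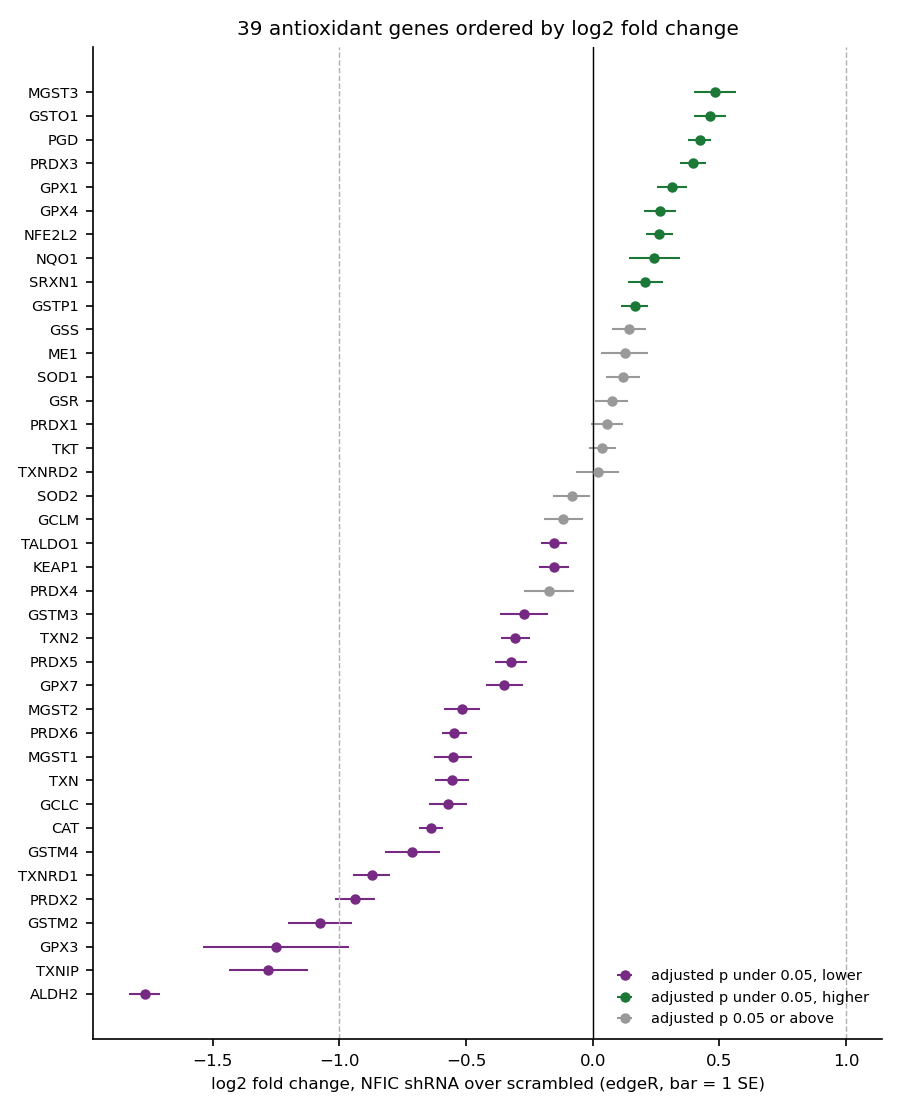
The log2 fold change of NFIC shRNA over scrambled shRNA on the horizontal axis is shown for each of the 39 genes, with a bar of 1 SE from edgeR and dashed lines at a 2-fold change. The values run from -1.77 for ALDH2 to 0.48 for MGST3, and no gene reaches the upper dashed line.

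The regulator rose by a small amount, and its inhibitor was lower with a call that depended on the analysis. NFE2L2 was at 104.0, 96.1 and 103.3 CPM with scrambled shRNA and at 118.7, 119.3 and 125.6 with NFIC shRNA. All 3 knockdown samples lay above all 3 control samples, and the log2 fold change was 0.26. KEAP1 was at 57.5, 56.2 and 55.6 CPM in the control samples and at 49.2, 50.1 and 52.8 in the knockdown samples, again without overlap. Its log2 fold change was -0.15 (SE 0.059, adjusted p = 0.0308 from edgeR). The KEAP1 call was lost, with adjusted p values from edgeR between 0.0525 and 0.134, when scrambled replicate 1, scrambled replicate 3, NFIC shRNA replicate 1 or NFIC shRNA replicate 2 was left out. It was also lost with DESeq2 (adjusted p = 0.122) and with no filter on low counts (adjusted p = 0.0632 from edgeR). The replicate number as a block ended it too (adjusted p = 0.0556 from edgeR), so that the call held in 7 of 14 alternatives. In the GENCODE release 44 model of NFE2L2, which has 14975 exon bases against 5671 in the deposited table, 23.4% of the exon bases are shared with HNRNPA3 on the other strand. The overlap in the model used for counting is not known here, and because the libraries do not mark strand, reads from a shared stretch could not be told apart.

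Antioxidant response elements are the textbook sites of NRF2, and their presence was read from promoter sequence because several members carry one close to the start. RefSeq promoter windows on GRCh38.p14, 250 bases before and 50 after each start, were at hand for 31 of the 39 genes. The core TGACNNNGC, read on both strands, occurred in 8 of these 31 genes (25.8%) and in 16.1% of all genes with a window. Sequences with 16 bases on either side are printed for 6 of the genes, 5′ to 3′ on the strand of the gene, with the core in capitals.
GSTO1, chr10:104254650-104254690, plus strand: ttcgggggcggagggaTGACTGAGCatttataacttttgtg
PGD, chr1:10398847-10398887, plus strand: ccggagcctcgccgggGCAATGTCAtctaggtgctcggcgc
GSTP1, chr11:67583730-67583770, plus strand: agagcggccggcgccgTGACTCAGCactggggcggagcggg
ME1, chr6:83431164-83431204, minus strand: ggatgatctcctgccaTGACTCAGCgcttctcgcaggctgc
GCLM, chr1:93909440-93909480, minus strand: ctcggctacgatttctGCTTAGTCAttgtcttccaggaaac
TXNRD1, chr12:104215664-104215704, plus strand: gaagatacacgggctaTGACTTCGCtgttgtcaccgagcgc

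These 6 genes, listed from the highest log2 fold change to the lowest, went both ways. By the GENCODE annotation 17 bases of the GCLM sequence and 29 of the GSTP1 sequence lie in an exon of the gene, and the other 4 sequences hold no exon base of it. Of these, the GSTO1 and PGD sequences lie inside the GENCODE gene, which starts at 104235356 and at 10398592. The ME1 and TXNRD1 sequences lie before the start of theirs. GSTO1, PGD and GSTP1 rose, ME1 and GCLM did not pass the test, and TXNRD1 fell to 54.6% of its control level. Of the 8 genes with the core, which include KEAP1 and MGST1, 3 rose (37.5%) and 3 fell (37.5%). Of the 23 genes with a window but no core, 7 rose (30.4%) and 12 fell (52.2%), and of all genes tested 29.6% rose and 30.3% fell. The window for GSTP1 holds the core 66 bases before the RefSeq start. The palindromic NFI site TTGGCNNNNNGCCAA occurred in none of the 45 windows of the members and in 0.0285% of all windows, and its first arm, TTGGC on either strand, in 42.2% of the members' windows against 45.6% of all. A match is a description of these letters and not a measurement of binding.

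In glutathione synthesis the catalytic subunit fell while its partner did not pass the test. GCLC, the catalytic subunit of the enzyme that limits glutathione synthesis, was at 32.5, 31.5 and 31.3 CPM with scrambled shRNA and at 21.0, 20.1 and 23.0 CPM with NFIC shRNA. The groups lay well apart, and 67.3% of the control level remained (log2 fold change -0.57, SE 0.075, adjusted p = 4.40e-06 from edgeR). GCLM, the modifier subunit, was at 32.2 ± 2.63 CPM (SD, n = 3) and 29.7 ± 2.04 CPM (SD, n = 3), and its samples overlapped. The ratio of GCLC to GCLM in deposited FPKM, which is per length of gene, went from 0.624 to 0.453, with every knockdown sample below every control sample. An exact permutation test of 3 against 3 cannot give a two-sided p under 0.1, the value it gave here.

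The 2 later enzymes of the pathway did not pass. GSS, glutathione synthetase, was at 35.1, 38.7 and 36.3 CPM against 39.9, 42.4 and 39.3 CPM, without overlap between the groups but with an adjusted p of 0.0760 from edgeR (log2 fold change 0.14, SE 0.067). It passed without scrambled replicate 2 (log2 fold change 0.18, adjusted p = 0.0471 from edgeR) and without NFIC shRNA replicate 3 (0.17, adjusted p = 0.0465 from edgeR). Without both samples it was 0.20 (adjusted p = 0.0119 from edgeR), and it also passed with total counts in place of TMM (adjusted p = 0.0472 from edgeR). GSR, which returns oxidized glutathione to its reduced form with NADPH, was at 48.9 ± 3.78 and 51.6 ± 1.24 CPM (SD, n = 3 each) and its samples overlapped. Summed over the 4 genes of synthesis and recycling, deposited FPKM was 28.8 ± 1.66 with scrambled shRNA and 28.8 ± 0.692 with NFIC shRNA (SD, n = 3 each).

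Glutathione peroxidases, which reduce peroxides with glutathione, were split between the abundant members, which rose, and the others, which fell. GPX1, the cytosolic enzyme and the member with the highest FPKM in both groups, was at 275.5, 297.2 and 275.3 CPM in control samples and at 327.8, 342.2 and 383.4 CPM in knockdown samples, a log2 fold change of 0.31. GPX4, which reduces lipid hydroperoxides in membranes, was at 132.8, 140.5 and 145.5 CPM against 152.4, 168.2 and 182.7 CPM, a log2 fold change of 0.27. Neither gene had an overlap between groups. GPX7, an enzyme of the endoplasmic reticulum, fell from 46.9 ± 3.25 to 36.9 ± 2.86 CPM (SD, n = 3 each). GPX3, the secreted plasma form, had only 30, 50 and 34 counts in the control samples and 15, 12 and 20 in the knockdown samples, or 1.67 ± 0.330 and 0.704 ± 0.176 CPM (SD, n = 3 each). It is the lowest of the 39 genes in FPKM, so its log2 fold change of -1.25 had the largest standard error (0.288, adjusted p = 0.00123 from edgeR). Because GPX1 and GPX4 dominate, the summed FPKM of the 4 peroxidases was 1.21 times the control sum. In GENCODE 39.9% of the exon bases of GPX1 belong also to another gene model on the same strand, which makes its count less certain.

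**Figure D2:**
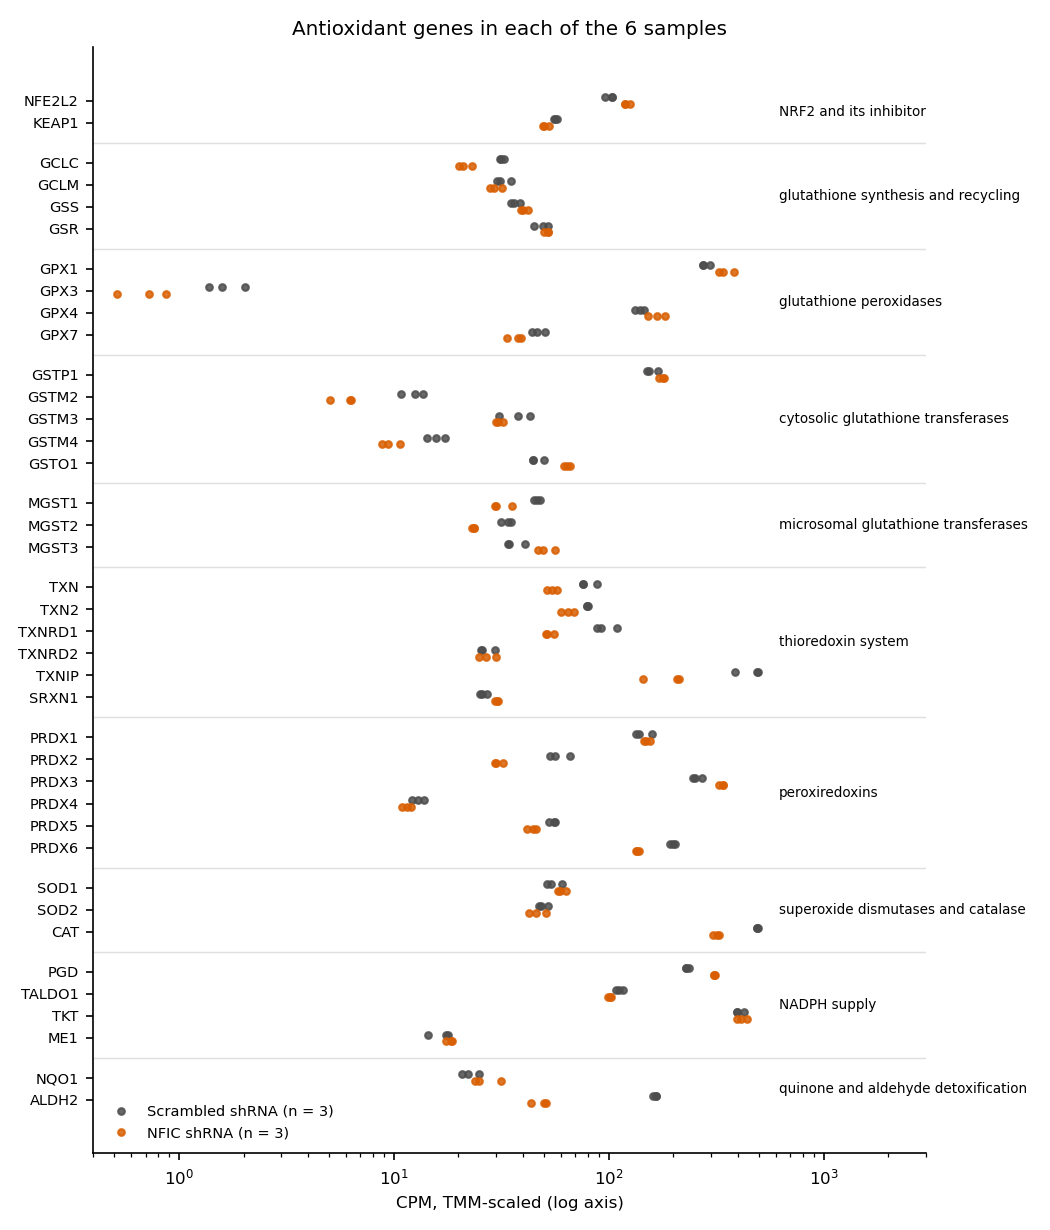
CPM scaled by TMM factors is on the horizontal log axis, with 1 row per gene, genes grouped by function and 1 point for each of the 3 scrambled and 3 NFIC shRNA samples. In ALDH2, TXNIP, PRDX2, TXNRD1 and CAT the 2 sets of points are clearly separate, with NFIC shRNA lower, and in PGD and PRDX3 they are separate with NFIC shRNA higher.

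The cytosolic glutathione transferases attach glutathione to electrophiles, and of these 5 genes 2 rose and 3 fell. The 3 that fell are of the mu class. They lie near each other on chromosome 1 of GRCh38, with GSTM4 from 109656099 to 109665496, GSTM2 from 109668022 to 109709551 and GSTM3 from 109733932 to 109741038. In GENCODE 6.13% of the exon bases of GSTM2 are shared with GSTM1 on the same strand. GSTM2 was at 10.8, 12.6 and 13.6 CPM with scrambled shRNA and at 6.31, 6.25 and 5.03 CPM with NFIC shRNA (log2 fold change -1.08, SE 0.126, adjusted p = 1.12e-06 from edgeR). GSTM4 was at 14.2, 17.4 and 15.7 CPM against 8.78, 10.7 and 9.36 CPM (log2 fold change -0.71, SE 0.107, adjusted p = 2.01e-05 from edgeR). In both genes every knockdown sample was below every control sample. These genes are close copies of each other, so reads may have been divided among them or dropped by the authors' counting, and the values of single mu-class genes are uncertain.

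GSTM3 was the least certain of the mu class. It was at 30.9, 43.0 and 37.8 CPM against 32.3, 30.5 and 30.0 CPM, the groups overlapped, and the log2 fold change was -0.27 (SE 0.096, adjusted p = 0.0226 from edgeR). Its high value in scrambled replicate 2 carried much of the difference, since its omission gave a log2 fold change of -0.16 and an edgeR adjusted p of 0.139. Leaving out scrambled replicate 3, NFIC shRNA replicate 2 or NFIC shRNA replicate 3 also ended the call, with adjusted p values from edgeR between 0.0603 and 0.0837. Without scrambled replicate 2 and NFIC shRNA replicate 3 together, the value was -0.13 (adjusted p = 0.158 from edgeR).

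GSTO1 and GSTP1 were higher. GSTO1, an omega-class enzyme with reductase activity, was at 44.6, 50.3 and 44.6 CPM against 62.2, 63.8 and 66.1 CPM, 137.7% of the control level. GSTP1, the pi-class enzyme and one of the abundant transcripts of the group, was at 153.8, 169.0 and 150.3 CPM against 171.6, 178.9 and 180.1 CPM. The groups did not overlap and the log2 fold change was 0.17 (SE 0.054, adjusted p = 0.0138 from edgeR). The GSTP1 call was lost without scrambled replicate 1 (adjusted p = 0.0758 from edgeR), without scrambled replicate 3 (adjusted p = 0.101 from edgeR) and with upper-quartile scaling (adjusted p = 0.0792 from edgeR).

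Of the 3 microsomal transferases, membrane enzymes that act on lipid peroxides and leukotriene precursors, 2 fell and 1 rose. MGST1 was at 45.0, 47.7 and 46.6 CPM with scrambled shRNA and at 29.7, 29.8 and 35.5 CPM with NFIC shRNA (log2 fold change -0.55, SE 0.075, adjusted p = 6.03e-06 from edgeR). MGST2 was at 34.1, 35.1 and 31.6 CPM against 23.1, 23.7 and 23.6 CPM (log2 fold change -0.52, SE 0.072, adjusted p = 7.93e-06 from edgeR). MGST3 went the other way, from 33.8, 41.0 and 34.2 CPM to 47.1, 49.4 and 56.0 CPM, and had the largest log2 fold change of the genes that rose (0.48). No overlap between groups occurred in any of the 3. In deposited FPKM the ratio of MGST3 to MGST1 therefore went from 0.722 to 1.49, with the exact permutation p at its smallest value of 0.1.

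The thioredoxin system had the lowest ratio of summed FPKM after quinone and aldehyde detoxification. Summed FPKM was 278 ± 7.73 with scrambled shRNA and 167 ± 4.70 with NFIC shRNA (SD, n = 3 each), a ratio of 0.601. TXNIP, the protein that binds and inhibits thioredoxin and that is known to follow glucose supply, made up much of that sum. Its FPKM was 125.2 ± 16.5 with scrambled shRNA and 52.0 ± 10.1 with NFIC shRNA (SD, n = 3 each). The sum joins this inhibitor with the other genes of the system, so its ratio does not measure thioredoxin capacity. TXNIP (ENSG00000265972) lies on chromosome 1 from 145992435 to 145996579. It was at 494.9, 387.0 and 488.0 CPM in the control samples and at 207.1, 212.1 and 144.8 CPM in the knockdown samples. The lowest control sample was still well above the highest knockdown sample, and 41.2% of the control level remained (log2 fold change -1.28, SE 0.155, adjusted p = 0.000160 from edgeR). The lowest values in each group were those of scrambled replicate 2 and NFIC shRNA replicate 3, the samples that stand apart, and fits that left out 1 sample gave log2 fold changes between -1.39 and -1.12.

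TXN (chromosome 9, 110243810 to 110256507) and TXNRD1 (chromosome 12, 104215779 to 104350307), the cytosolic partners, fell as well. TXN, cytosolic thioredoxin, was at 76.0, 88.7 and 76.2 CPM against 54.4, 51.8 and 57.6 CPM (log2 fold change -0.56, SE 0.068, adjusted p = 1.93e-06 from edgeR). TXNRD1, the cytosolic selenoenzyme that reduces thioredoxin with NADPH, was at 88.3, 108.8 and 92.6 CPM against 55.6, 51.2 and 51.6 CPM (log2 fold change -0.87, SE 0.073, adjusted p = 2.63e-08 from edgeR). No knockdown sample reached the lowest control sample in either gene. TXN2, the mitochondrial thioredoxin, fell less, from 79.8 ± 0.297 to 64.6 ± 4.17 CPM (SD, n = 3 each). TXNRD2, its mitochondrial reductase, was at 26.9 ± 2.33 and 27.3 ± 2.49 CPM (SD, n = 3 each), did not pass the test, and had a log2 fold change of 0.02 that turned negative under upper-quartile scaling. The ratio of TXNRD1 to TXNRD2 in FPKM was 4.43 ± 0.7995 in control and 2.37 ± 0.117 in knockdown samples (SD, n = 3 each, exact permutation p = 0.1, the smallest possible).

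SRXN1, sulfiredoxin, which repairs overoxidized peroxiredoxins, was the 1 gene of the system that rose. It was at 25.8, 27.3 and 25.3 CPM against 29.5, 30.3 and 30.6 CPM, without overlap, with a log2 fold change of 0.21 (SE 0.070, adjusted p = 0.0171 from edgeR). The call was lost without scrambled replicate 1 (adjusted p = 0.0616 from edgeR), without scrambled replicate 3 (adjusted p = 0.0790 from edgeR) and with upper-quartile scaling (adjusted p = 0.0699 from edgeR). A readthrough gene shares 90.7% of its exon bases in GENCODE, so the SRXN1 count is uncertain.

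Peroxiredoxins, the peroxidases that thioredoxin keeps reduced, were lower, higher or past no threshold according to the member. PRDX2, an abundant cytosolic peroxiredoxin of blood cells, was at 53.5, 65.8 and 56.0 CPM with scrambled shRNA and at 29.8, 32.1 and 29.6 CPM with NFIC shRNA (log2 fold change -0.94, SE 0.078, adjusted p = 2.08e-08 from edgeR). PRDX6, the member that uses glutathione and repairs phospholipids, was at 202.6, 199.6 and 193.0 CPM against 134.9, 138.4 and 134.3 CPM (log2 fold change -0.55, SE 0.048, adjusted p = 3.79e-08 from edgeR). Both genes had knockdown values close together and far below the control values. PRDX5, found in mitochondria, peroxisomes and cytosol, fell from 55.0 ± 1.87 to 43.95 ± 2.15 CPM (SD, n = 3 each).

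PRDX3, the mitochondrial peroxiredoxin, rose from 251.6, 271.1 and 245.7 CPM to 342.1, 327.4 and 342.4 CPM, with a log2 fold change of 0.40. The ratio of PRDX3 to PRDX2 in FPKM thus went from 2.65 ± 0.176 to 6.66 ± 0.457 (SD, n = 3 each, exact permutation p = 0.1, the smallest possible). PRDX1, the most abundant cytosolic member in FPKM, was at 134.4, 159.8 and 138.5 CPM against 148.7, 145.6 and 155.7 CPM. Its samples overlapped, and the log2 fold change of 0.06 (SE 0.062, adjusted p = 0.451 from edgeR) was slightly negative under upper-quartile scaling. Without scrambled replicate 2 and NFIC shRNA replicate 3 together it was 0.11 and passed (adjusted p = 0.0482 from edgeR). PRDX4, the form of the endoplasmic reticulum, was at 12.1, 13.9 and 12.98 CPM against 11.0, 11.6 and 12.1 CPM (log2 fold change -0.17, SE 0.097, adjusted p = 0.135 from edgeR), and it passed under upper-quartile scaling (adjusted p = 0.0484 from edgeR). In GENCODE 29.8% of the exon bases of PRDX1 are shared with MMACHC on the other strand.

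Catalase and the superoxide dismutases differed from each other. CAT, the peroxisomal enzyme that splits hydrogen peroxide without NADPH, had the second highest FPKM of the 39 genes in control samples. CAT (ENSG00000121691) lies on chromosome 11 from 34438934 to 34472060. It fell from 490.0, 494.4 and 492.8 CPM to 326.2, 318.4 and 304.7 CPM (log2 fold change -0.64, SE 0.048, adjusted p = 4.99e-09 from edgeR). The SD of the control values was 2.23 CPM, far less than the difference between groups.

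SOD1, the cytosolic dismutase that makes hydrogen peroxide from superoxide, was at 53.8, 60.9 and 51.8 CPM against 59.3, 58.1 and 63.5 CPM (log2 fold change 0.12, SE 0.068, adjusted p = 0.141 from edgeR). Without scrambled replicate 2, the highest control sample, its log2 fold change was 0.19 and passed (adjusted p = 0.0226 from edgeR), and without that sample and NFIC shRNA replicate 3 together it was 0.15 (adjusted p = 0.0279 from edgeR). SOD2, the mitochondrial dismutase, is listed under 2 identifiers that share its locus. They were at 49.4 ± 2.51 against 46.6 ± 4.33 CPM and at 36.8 ± 3.34 against 36.5 ± 4.49 CPM (SD, n = 3 each), and neither passed the test.

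Among the genes that supply NADPH, PGD rose and the others differed little. PGD, 6-phosphogluconate dehydrogenase, which makes NADPH in the pentose phosphate pathway, was at 229.8, 237.5 and 228.9 CPM against 309.9, 312.9 and 309.5 CPM, a log2 fold change of 0.42. Its groups were narrow and far apart. TALDO1, transaldolase of the nonoxidative branch, was at 108.8, 116.4 and 111.5 CPM against 102.6, 98.9 and 101.7 CPM (log2 fold change -0.15, SE 0.051, adjusted p = 0.0172 from edgeR). It lost the call without scrambled replicate 2 (adjusted p = 0.0560 from edgeR), without NFIC shRNA replicate 2 (adjusted p = 0.0575 from edgeR) and with DESeq2 (adjusted p = 0.0623). TKT, transketolase, was at 406.6 ± 19.1 and 417.2 ± 23.3 CPM and ME1, cytosolic malic enzyme, at 16.7 ± 1.88 and 18.2 ± 0.622 CPM (SD, n = 3 each). Both had overlapping samples and did not pass, and the sign of TKT turned under upper-quartile scaling.

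ALDH2 and NQO1 complete the list and moved oppositely. ALDH2 (ENSG00000111275) lies on chromosome 12 from 111766887 to 111817532. This gene, which encodes the mitochondrial aldehyde dehydrogenase that clears acetaldehyde and lipid aldehydes, was at 165.7, 161.6 and 166.8 CPM with scrambled shRNA and at 50.2, 51.2 and 43.6 CPM with NFIC shRNA. It kept 29.4% of its control level, the largest change of the 39 genes (SE 0.062, adjusted p = 6.73e-13 from edgeR), and in deposited FPKM it moved from rank 20 to rank 32 among them. NQO1, a quinone reductase often used as a readout of NRF2, was at 20.8, 24.95 and 22.1 CPM against 24.0, 24.9 and 31.5 CPM. The groups overlapped, and the log2 fold change of 0.24 (SE 0.102) sat at the threshold with an adjusted p of 0.0491 from edgeR. NFIC shRNA replicate 3 was the high sample, and without it the log2 fold change dropped to 0.11 (edgeR adjusted p = 0.286). The NQO1 call was also lost without scrambled replicate 1 (adjusted p = 0.193 from edgeR), without scrambled replicate 3 (adjusted p = 0.131 from edgeR) and with DESeq2 (adjusted p = 0.0664). Upper-quartile scaling (adjusted p = 0.115 from edgeR), a minimum of 10 counts in every sample (adjusted p = 0.0627 from edgeR) and the replicate number as a block (adjusted p = 0.0564 from edgeR) ended it too. So did the omission of scrambled replicate 2 with NFIC shRNA replicate 3 (adjusted p = 0.0623 from edgeR), and the call held in 6 of 14 alternatives.

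Most calls did not depend on the analysis. Over 14 alternative analyses, 7 of the 10 genes called higher, 16 of the 19 called lower and 6 of the 10 not called had the same call in every one. The exceptions were GSTP1, SRXN1 and NQO1 among the higher genes, KEAP1, GSTM3 and TALDO1 among the lower ones, and GSS, PRDX1, PRDX4 and SOD1 among those not called.

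**Figure D3:**
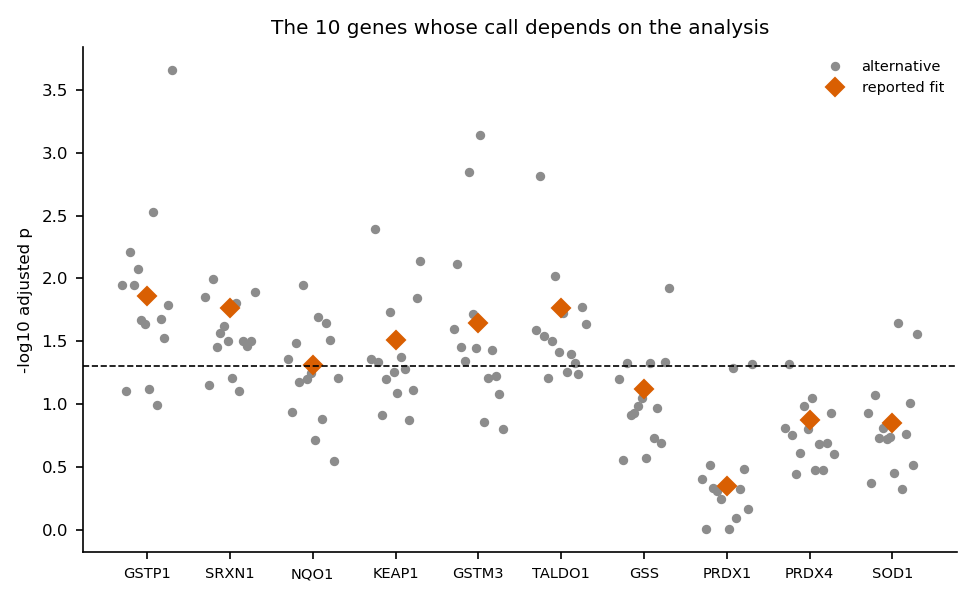
The adjusted p on a -log10 scale is on the vertical axis for the 10 genes whose call changed in at least 1 of 14 alternative analyses, with the reported edgeR fit as a diamond, each alternative as a grey point and a dashed line at 0.05. The reported value of NQO1, 0.0491, lies on the line, and PRDX1 and PRDX4 cross it in 1 alternative each.

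Ranked by deposited FPKM in control samples, GPX1 was first at 236 ± 10.6, followed by CAT at 135.9 ± 0.951, TXNIP at 125.2 ± 16.5 and PRDX1 at 94.7 ± 9.01 (SD, n = 3 each). With NFIC shRNA the order was GPX1, GSTP1, PRDX3 and PRDX1. CAT then ranked 6 and TXNIP 10. FPKM is divided by gene length, and the order in CPM differs. In control samples CAT (492 CPM), TXNIP (457) and TKT (407) were above GPX1 (283). Summed over the 39 genes, FPKM was 1518 ± 41.6 in control and 1440.2 ± 45.7 in knockdown samples (SD, n = 3 each), a ratio of 0.948. TXNIP, the inhibitor of thioredoxin, is part of this sum and alone went from 125.2 to 52.0 FPKM. The ratio therefore does not measure antioxidant capacity. In bulk RNA, fewer cells of a type and less RNA per cell cannot be told apart.

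Some cell type markers also differed between the groups, as did 59.9% of all genes tested. All 10 monocyte and macrophage markers were detected and tested. Of these 4 rose and 4 fell, and their summed level was 1390.1 to 1519 CPM in control and 1613 to 1812 CPM in knockdown samples. LYZ, the highest of them, rose from 572 ± 69.0 to 940 ± 104 CPM (SD, n = 3 each). The next highest in control samples fell, CD68 from 261 ± 8.34 to 130 ± 8.56 CPM and CSF1R from 219 ± 9.29 to 146 ± 16.1 CPM (SD, n = 3 each). The higher sum thus follows LYZ and not the list as a whole. Of 10 granulocyte markers 6 were tested, BPI rose and 5 fell, with sums of 3344 to 3771 CPM against 2000.2 to 2117 CPM, and LTF, CEACAM8 and FCGR3B were at 0 in the control samples or are not listed. The sums over 9 erythroid markers, none of which passed the filter and 4 of which are not listed, were 0.607 to 0.853 CPM against 0.146 to 0.260 CPM, and those over 8 lymphocyte markers, of which 2 of 3 tested fell, 9.66 to 10.3 CPM against 4.51 to 5.39 CPM. For 6 megakaryocyte markers the sums were 11.6 to 14.5 CPM against 7.15 to 8.19 CPM, and 2 of 3 tested fell. What part these differences had in the antioxidant genes was not tested.

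A list of 119 further genes of the same pathways was read alongside, 118 of which were in the table and 114 were tested. Of these 36 rose (31.6%) and 47 fell (41.2%), against 29.6% and 30.3% of all genes tested. BACH1, the repressor that competes with NRF2, had a log2 fold change of 0.16 (adjusted p = 0.0180 from edgeR). Classical NRF2 targets went both ways. HMOX1, heme oxygenase 1, was at 7.37 ± 0.496 and 6.998 ± 0.881 CPM (SD, n = 3 each) and did not pass, whereas SLC7A11, the cystine importer that feeds glutathione synthesis, fell from 76.6 ± 8.63 to 51.6 ± 9.25 CPM (log2 fold change -0.57, adjusted p = 0.00385 from edgeR). The ferritin subunits separated, with FTH1 at a log2 fold change of -0.47 and FTL at 0.33.

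Counts differed by functional group, and these differences were not tested. The shares of all genes tested were 29.6% higher and 30.3% lower. Of 13 genes of glutathione turnover and transport 9 fell (69.2%) and 3 rose (23.1%), and of 10 other peroxidases and transferases 7 fell (70.0%) and none rose, all 10 having a negative log2 fold change in the edgeR fit. GGT1, in the turnover group, is listed under 2 identifiers, and the entry used fell (log2 fold change -0.81). The other had more counts, at 133 ± 2.77 against 133 ± 9.16 CPM (SD, n = 3 each). It did not pass (log2 fold change 0.0070, adjusted p = 0.922 from edgeR). Methionine sulfoxide reductases and selenoprotein genes had 8 that rose (61.5%) and 1 that fell (7.69%) of 13. The strongest gains were in CBR3, a carbonyl reductase (log2 fold change 1.72), NCF1, an NADPH oxidase subunit with near-identical pseudogenes and so an uncertain count (1.61), MSRB1, a methionine sulfoxide reductase (1.09), SELENOM, a selenoprotein (1.04), and NADK, the kinase that makes NADP from NAD (0.90).

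The strongest losses were in LTC4S, leukotriene C4 synthase, which went from 7.83 ± 1.16 to 1.65 ± 0.521 CPM, ARRDC4, an arrestin related to TXNIP, from 43.1 ± 4.67 to 10.5 ± 2.63 CPM, and MTHFD1L, a mitochondrial folate enzyme, from 98.9 ± 3.64 to 34.5 ± 7.12 CPM (SD, n = 3 each). ALDH7A1, another aldehyde dehydrogenase, went from 4.57 ± 1.31 to 1.19 ± 0.227 CPM (SD, n = 3 each). AKR1C3, an aldo-keto reductase, was low throughout, at 0.832, 1.38 and 0.841 CPM against 0.291, 0.129 and 0.0867 CPM, and the last of these is under the smallest detectable amount.

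**Figure D4:**
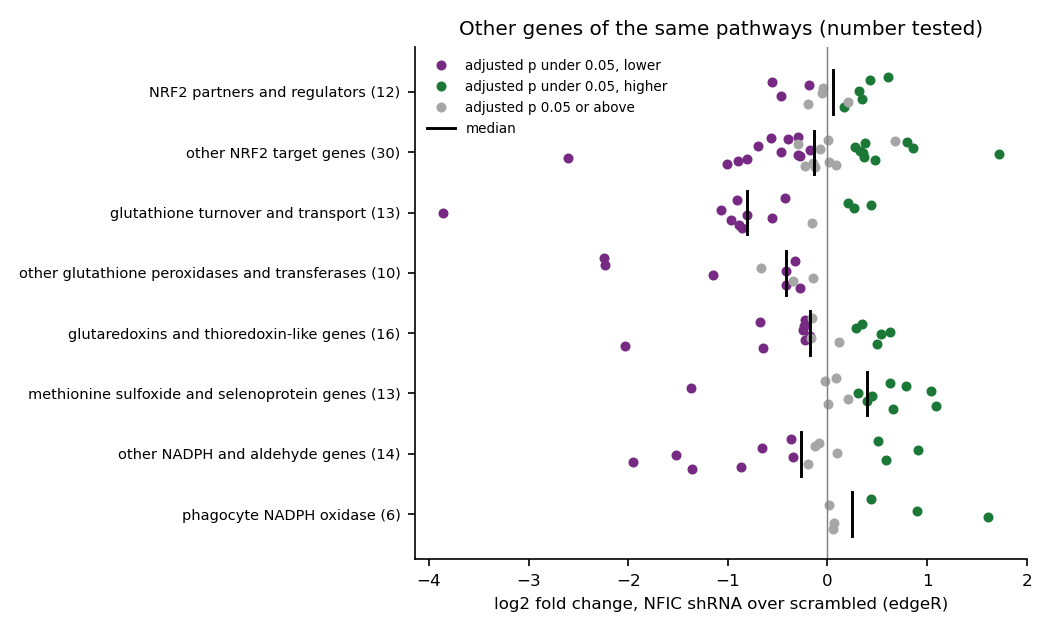
Each point is the log2 fold change, on the horizontal axis, of 1 of the 114 further genes tested, in 8 functional groups with the number of genes tested in brackets and a black bar at the median. Points of glutathione turnover lie mostly to the left of 0 with a median of -0.81, and points of the methionine sulfoxide and selenoprotein genes mostly to the right with a median of 0.40. The turnover median is the value of the GGT1 entry used, and the other entry of that name, not shown, is at 0.0070.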

How the data were processed

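Bulk mRNA of 6 THP-1 samples was sequenced from libraries whose preparation does not mark strand. By the study's methods, the authors trimmed reads with Trim Galore, mapped them to GRCh38 with STAR and counted them per gene with featureCounts (Ensembl release 96), and the deposited counts are not normalized. Deposited FPKM, which the authors computed from normalized counts and gene length, was used here only to compare levels between genes and to form sums and ratios. Tool versions and the strand setting are not given in the sources used here. The deposited signal (count divided by a size factor) and the authors' DESeq2 columns (log2 fold change, its error, score and p-value) were not used.

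From the counts, edgeR 4.0.16 in R 4.3.3 was run with TMM scaling, filterByExpr, robust quasi-likelihood dispersions and no block, with Benjamini-Hochberg adjustment over 19182 genes and a threshold of 0.05. CPM values are TMM-scaled. The standard error is the absolute log2 fold change divided by the square root of F. Ratios were tested by exact permutation, two-sided. Depth was 20369543 to 24809720 counts a sample, and 3 counts were taken as the detection floor. The 39 members, the further list, the markers and the alternatives were chosen with earlier results of these data known. From the further list the text names HMOX1, SLC7A11, BACH1, FTH1 and FTL and, among genes with an adjusted p under 0.05, no overlap between groups and at least 10 counts on average, the 5 higher and 5 lower with the largest change. A further gene chosen by this rule is not reported here. Full statistics are given for members with an absolute log2 fold change of at least 0.5 or with a call that depends on the analysis. Where a name had 2 identifiers, the entry carrying that name in GENCODE or, failing that, the one with more counts was used.

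Positions came from GENCODE release 44 (GRCh38), in which 38 of 39 members matched by identifier, and promoter windows from RefSeq (GRCh38.p14). Alternatives to TMM were upper-quartile scaling, DESeq2 size factors and total counts. The others were the test of DESeq2 1.42.0, omitting the low-count filter or asking for 10 counts in all samples, each sample left out, scrambled replicate 2 and NFIC shRNA replicate 3 left out together, the replicate number as a block, and for counts of genes an adjusted p under 0.01. The tests were tried on simulated data. Samples of a group exceeded sampling noise in each pairwise comparison (chi-square per degree of freedom 1.98 to 7.80). The name of the deposited table marks duplicates as flagged, and whether they were removed is not given in the sources used here.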

Additional observations from a re-analysis of the deposited data

How the results depend on the processing

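With 3 samples in each group and 1 cell line, small changes near the threshold are not resolved. Of the counts and summary values set against alternatives, 114 kept their direction and stayed within 1.5 times or the spread, and 1 moved: the members' median log2 fold change was -0.21 under upper-quartile scaling, against -0.15. That scaling, which moved the median of all genes to -0.07 and the share of higher among all calls from 49.4% to 43.2%, left 7 members higher and 20 lower and turned PRDX1 to -0.00081, TKT to -0.019 and TXNRD2 to -0.038, none of which passed; the cause was not tested. Leaving out 1 sample gave TKT values from -0.0030 to 0.078 (0.083 without scrambled replicate 2 and NFIC shRNA replicate 3) and TXNRD2 values from -0.046 to 0.085, and TXNRD2 was -0.017 without scrambled replicate 2 and NFIC shRNA replicate 3. For single genes, 501 values kept their call and sign, 29 lost the call, 8 gained it and 8 changed sign without passing. Samples with the same replicate number had correlations of 0.0563, -0.0862 and -0.0446 across genes. The largest correlation, 0.145, was between scrambled replicate 2 and NFIC shRNA replicate 3, which the sample titles name C3 and N3. Pairing by the number in the titles was not tested. With the replicate block 9 members were higher and 18 lower and 10983 of all genes were called, with KEAP1 (adjusted p = 0.0556 from edgeR) and NQO1 (0.0564) lost. DESeq2 called 10084 genes.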

Other observations

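Grouped after the values were seen, the genes of both lists that encode selenocysteine proteins counted 7 that rose and 3 that fell of 13 tested, against 29.6% and 30.3% of all genes. GPX1, GPX4 and MSRB1 were among those that rose, and TXNRD1, GPX3 and SELENOP among those that fell. GSTM1, named after its value was seen, was at 16.04, 20.2 and 15.5 CPM with scrambled shRNA and at 13.9, 11.3 and 13.7 CPM with NFIC shRNA (log2 fold change -0.42, adjusted p = 0.00445 from edgeR), so that all 4 mu-class genes tested were lower, with the uncertainty of shared reads.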
